A study of Homo sapiens with 8 samples.

Results

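The structured small RNAs described here are the 10 non-coding RNAs RN7SK, RPPH1, RMRP, TERC, RN7SL1, RN7SL2, RNY1, RNY3, RNY4 and VTRNA1-1, taken by symbol from the 60664 genes of the count table of the nuclear libraries. They were set in 2 groups by textbook location, 4 nuclear RNAs and 6 cytosolic RNAs, and the rule for choosing them uses no measured value. HEK293T cells, a transformed line of human embryonic kidney origin, carried APEX2, a peroxidase engineered to biotinylate nearby RNA. In the first set APEX2 carried a nuclear localisation signal (NLS), the libraries are titled ribominus, and they were built with a SMARTer stranded total RNA kit. There were 2 labelled and 2 unlabelled NLS libraries. In the second set APEX2 sat at the outer mitochondrial membrane (OMM), the libraries are titled trizol, and a TruSeq stranded mRNA kit was used, again with 2 labelled and 2 unlabelled libraries. All cells expressed APEX2, controls included. Biotinylated RNA was taken up on streptavidin beads, and as the series description reads the unlabelled controls are part of the same enrichment. Compartment and kit coincide and cannot be told apart. The series description has Proteinase K release at NLS and TRIzol at OMM, whereas the labels name a column kit (RNeasy) for all samples, so the recovery of RNA before library construction is not settled. Whether that step bears on the shortest RNAs was not tested. Whether libraries within a group are separate cultures is not in the labels, and the p-values then measure only how far these libraries spread, which may be technical.

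Structured small RNAs act as scaffolds or catalytic cores of ribonucleoproteins rather than as messages. Most are made by RNA polymerase III, end in a run of uridines and carry no poly(A) tail, whereas TERC is made by RNA polymerase II. RN7SK holds the elongation factor P-TEFb inactive in the nucleus. RPPH1 is the RNA of RNase P, which cuts the leader from precursor tRNAs, and RMRP is its relative in RNase MRP, which acts on precursor rRNA in the nucleolus. TERC is the template RNA of telomerase. RN7SL1 and RN7SL2 encode 7SL RNA, the scaffold of the signal recognition particle that brings ribosomes to the endoplasmic reticulum. The Y RNAs bind the Ro protein RO60, and VTRNA1-1 is a vault RNA, bound to the large cytosolic vault particle.

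The sequences below are GENCODE 29 transcripts on GRCh38, 5′ to 3′. RNY1 and RNY4 are shown whole because the largest differences concern the Y RNAs. RNY1 lies at chr7:148987136-148987248 (minus strand) and RNY4 at chr7:148963315-148963410 (plus strand), each the whole gene. Capitals mark the 11 bases that both share at the 5′ end and the 6-base run nearest the 3′ end that they share, the last of their longest shared runs there. These ends pair to form the stem that RO60 is known to bind.
RNY1: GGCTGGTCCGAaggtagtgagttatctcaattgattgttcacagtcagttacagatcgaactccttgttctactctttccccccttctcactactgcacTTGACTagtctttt
RNY4: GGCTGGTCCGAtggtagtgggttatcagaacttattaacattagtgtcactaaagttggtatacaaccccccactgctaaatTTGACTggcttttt

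The counts of the 7SL genes depend on telling them apart. Over 299 ungapped positions RN7SL1 and RN7SL2 differed at 4 (98.7% identity), and the longest stretch without a difference was 205 bases.

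RN7SK and TERC carry recognisable working parts near their 5′ ends, and these are shown because they identify RNAs whose levels overlapped between groups. RN7SK lies at chr6:52995621-52995948 (plus strand). Its first 109 bases, chr6:52995621-52995729, held the letters GATC 3 times, in capitals, a palindrome that lies in the stem-loop where HEXIM1 is known to bind. Of 201635 transcripts of that length or more, 0.361% had at least as many in their first 109 bases. TERC lies at chr3:169764520-169765060 (minus strand), and bases 16 to 86, chr3:169764975-169765045, are shown. The longest run in TERC that follows the telomere repeat CCCTAA is CTAACCCTAAC, the known template, at bases 46 to 56 and in capitals. Of 160436 transcripts at least as long as TERC, 0.0118% had these 11 letters on either strand within a stretch of that length from the 5′ end. A match of letters is a description and not a site.
RN7SK: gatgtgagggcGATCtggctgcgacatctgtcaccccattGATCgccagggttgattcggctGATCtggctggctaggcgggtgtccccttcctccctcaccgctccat
TERC: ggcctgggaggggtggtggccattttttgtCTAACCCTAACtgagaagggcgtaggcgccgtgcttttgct

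The NLS libraries held 9531568 and 8039176 counts after labelling, against 20746393 and 21096586 in the controls, and the OMM libraries 34705126 to 52421161. Levels are counts per 1000000 counts of a library (CPM) scaled by TMM factors, and libraries carry the numbers of their columns, 1 and 3 at NLS, which differ from those in their titles. A floor of 3 counts equalled 0.265 and 0.312 CPM in labelled NLS libraries, against 0.171 and 0.173 CPM in controls, for counting error only. VIM, NEFM, PAX2 and GAPDH were detected in all 4 NLS libraries, and the highest marker of other cell types was CD3E at 2.00 CPM in control library 1. MALAT1, a nuclear RNA, averaged 5750 ± 720 CPM after labelling and 1160 ± 38.6 CPM in controls (SD, n = 2 each), and ACTB mRNA averaged 511 ± 92.6 CPM after labelling and 2090 ± 54.2 CPM in controls.

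The 2 controls differed for short RNAs, and which of them is unusual cannot be told from 2 libraries. All 10 RNAs were higher in control library 3 than in control library 1, and 7 of 10 by more than 2 times. The ratio ran from 1.38 for TERC to 7.34 for VTRNA1-1. Control library 1 had 24931 genes detected, against 30715 in control library 3 and 31638 and 31545 in the labelled libraries. Among 9761 tested genes averaging at least 16 CPM the median ratio of control library 3 to control library 1 was 1.01, and 0.471% were over 2. Among the 69 of these that are 400 bases or shorter, the 10 RNAs left out, the median was 1.42 and 20 were over 2. The labelled libraries were closer, with ratios of library 1 to library 3 between 0.608 and 1.89 for 9 of the RNAs and 8.51 for VTRNA1-1. Values without control library 3 are given beside the results for single RNAs. Leaving out control library 1 instead moved log2 fold changes of labelled over control further below 0, to -4.57 for RNY3 and -2.32 for RN7SL1. Fewer molecules and less efficient recovery of a molecule cannot be told apart in such libraries.

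**Figure D1:**
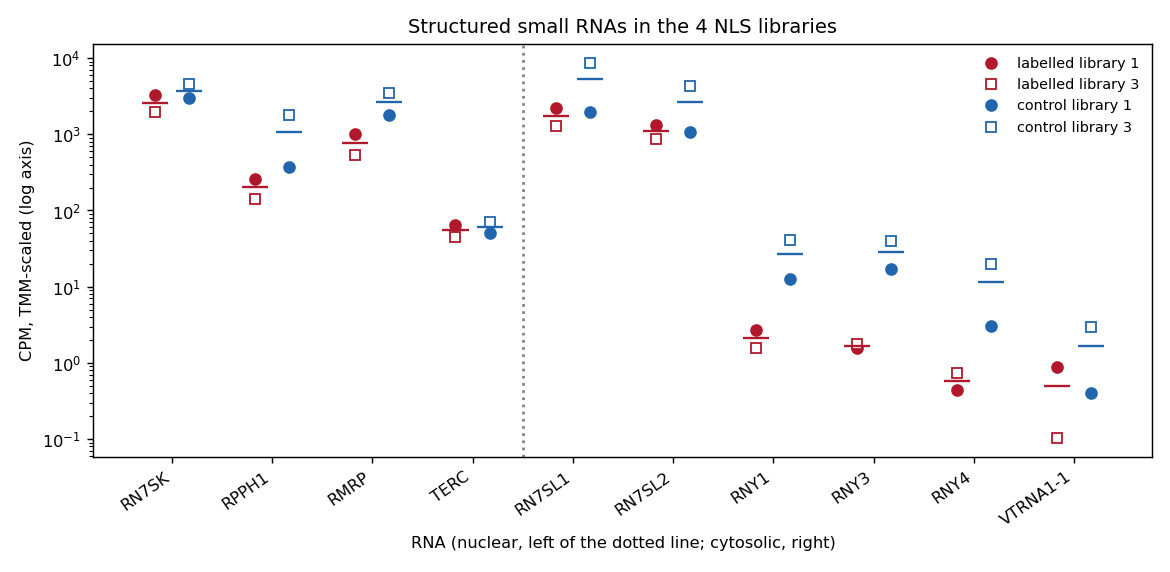
Each point is 1 NLS library's level of an RNA in CPM scaled by TMM factors (log axis), labelled libraries to the left of controls, with a bar at the mean of 2 libraries. The labelled points of RPPH1, RMRP, RNY1, RNY3 and RNY4 lie below both controls, and control library 3 is the highest point for all 10 RNAs.

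After nuclear labelling the 3 Y RNAs and RMRP fell, and 0 of the 10 RNAs rose. By edgeR's quasi-likelihood test with Benjamini-Hochberg adjustment over 20858 genes, 4 of 10 were lower at an adjusted p under 0.05, 1 nuclear and 3 cytosolic. Of all tested genes 57.3% passed, 28.5% lower and 28.8% higher. The count lower was 5 without control library 3, the same 4 and RPPH1, where 32.5% of all genes in that fit were lower. It was 10 without control library 1, where 33.6% were lower, and RMRP lost its call without either labelled library. At an unadjusted p under 0.05, 0 of 10 were higher, and DESeq2 called 0 higher and 4 lower, where it called 21.3% of all genes higher and 19.5% lower. All 10 log2 fold changes were negative, with a median of -1.74, beside 0.14 for all tested genes. Both labelled libraries lay below both controls for 5 of 10 RNAs, where 37.7% of tested genes did so and 45.1% lay above both, and for the other 5 RNAs the groups overlapped. The median was -1.16 for the 4 nuclear RNAs and -2.66 for the 6 cytosolic ones, values that are a description without a test. The medians without control library 3 were -0.55 and, over the 5 cytosolic RNAs left, -2.38. With 1 value per family (7SL, Y and vault) the cytosolic median was -1.70, and the nuclear minus cytosolic difference was 0.54 in place of 1.5.

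**Figure D2:**
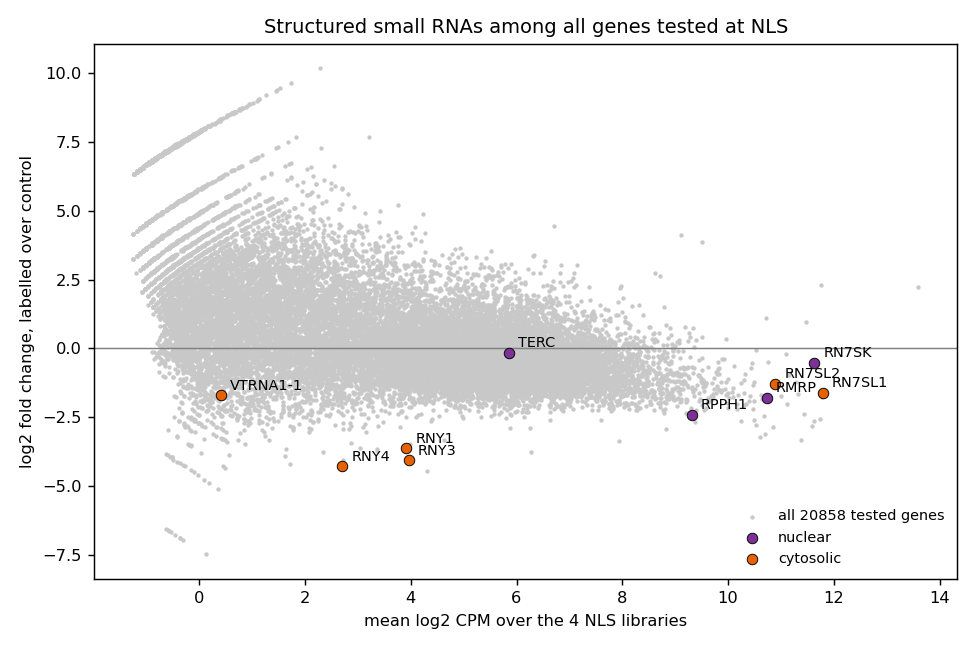
Each grey point is 1 of 20858 genes tested at NLS, by mean log2 CPM over 4 libraries and log2 fold change of labelled over control, with nuclear RNAs in purple and cytosolic RNAs in orange. RNY1, RNY3 and RNY4 lie at the lower edge, and RN7SK (-0.53) and TERC (-0.15) lie nearer to 0.

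Among the nuclear RNAs, RN7SK (ENSG00000283293) had 3227 and 1971 CPM in the labelled libraries, against 2977 and 4519 CPM in the controls. The groups overlapped, with labelled library 1 between the controls. The log2 fold change was -0.53 ± 0.26 (SE, adjusted p = 0.111), and with library size alone it was -0.01. It was -0.20 without control library 3 (adjusted p = 0.305) and -0.18 without labelled library 3 (adjusted p = 0.543), against -0.90 without labelled library 1 (adjusted p = 0.00331) and -0.81 without control library 1 (adjusted p = 6.07e-05). The value and its call thus depended on which library was left out. RN7SK made up 0.383% and 0.236% of all counts after labelling, against 0.251% and 0.372% in the controls.

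TERC (ENSG00000270141) had 64.7 and 45.0 CPM in the labelled libraries, against 51.4 and 70.7 CPM in the controls. Each group had 1 high and 1 low library, and the ranges overlapped over most of their width. The log2 fold change was -0.15 ± 0.21 (adjusted p = 0.555), and it was 0.10 without control library 3. It was 0.37 (adjusted p = 0.144) with library size alone, a scaling that moved the median of all genes from 0.14 to 0.66.

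RMRP had 1002 and 529 CPM in the labelled libraries, against 1787 and 3508 CPM in the controls. Both labelled libraries were below both controls, and the log2 fold change was -1.79 ± 0.36 (adjusted p = 0.00366). Without control library 3 it was -1.22. The call was lost without labelled library 1 (adjusted p = 0.186) and without labelled library 3 (adjusted p = 0.312), while the log2 fold changes stayed negative at -2.29 and -1.36. The file lists RMRP under a pair of identifiers, ENSG00000269900 (chr9:35657751-35658018, minus strand) and ENSG00000277027 (chr9:35657754-35658017), with identical counts, and it is counted here as 1 RNA.

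RPPH1 (ENSG00000277209, chr14:20343075-20343407, minus strand) had 262 and 140 CPM in the labelled libraries, against 374 and 1768 CPM in the controls. The labelled libraries were below both controls, but the controls differed 4.73 times between themselves. The log2 fold change of -2.41 ± 0.86 did not pass (adjusted p = 0.0759). Without control library 3 it was -0.90 and passed (adjusted p = 1.02e-05), in a fit where the lone control is assumed to vary like the labelled pair.

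Among the cytosolic RNAs the 3 Y RNAs fell and had the lowest log2 fold changes. RNY3 (ENSG00000202354) had 1.59 and 1.77 CPM in the labelled libraries, against 16.9 and 39.7 CPM in the controls. The groups did not overlap, and the log2 fold change was -4.07 ± 0.47 (adjusted p = 0.000214). RNY1 (ENSG00000201098) had 2.74 and 1.56 CPM after labelling, against 12.7 and 40.98 CPM in the controls. Its log2 fold change was -3.62 ± 0.60 (adjusted p = 0.00132), again without overlap.

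RNY4 (ENSG00000252316) had 0.442 and 0.727 CPM in the labelled libraries, against 3.03 and 19.7 CPM in the controls. These rest on 5 and 7 counts after labelling, against 53 and 342 in the controls. RNY4 thus passed the filter on low counts only through the controls, the group where it was high. The log2 fold change was -4.28 ± 0.95 (adjusted p = 0.00585). Of 12291 tested genes with at least the mean level of RNY4, 1 had a lower log2 fold change than RNY4, 2 had a lower one than RNY3 and 8 a lower one than RNY1. Without control library 3 the 3 Y RNAs were still called, at -3.33 for RNY3, -2.54 for RNY1 and -2.38 for RNY4.

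The 7SL RNAs did not pass the test. RN7SL1 (ENSG00000276168) had 2201 and 1283 CPM in the labelled libraries, against 1987 and 8682 CPM in the controls. RN7SL2 (ENSG00000274012) had 1338 and 868 CPM in the labelled libraries, against 1071 and 4317 CPM in the controls. For both, the labelled libraries lay on either side of control library 1 and far below control library 3. The log2 fold change of RN7SL1 was -1.61 ± 0.79 (adjusted p = 0.153) and that of RN7SL2 was -1.29 ± 0.73 (adjusted p = 0.202). Without control library 3 they were -0.19 (adjusted p = 0.302) and 0.04 (adjusted p = 0.829). The ratio of RN7SL1 to RN7SL2 counts was 1.65 and 1.48 after labelling and 1.86 and 2.01 in the controls, and the near-identity of the 2 genes makes the split between them uncertain. RPS29, a ribosomal protein gene, lies over RN7SL1 on the opposite strand with 768 and 687 counts after labelling, against 1314 and 1441 counts in the controls. The strand setting of the counting is not given, and RPS29 reads within RN7SL1 may not be told apart from it.

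VTRNA1-1 (ENSG00000199990, chr5:140711275-140711373, plus strand) was barely detected, with 10 and 1 counts in the labelled libraries, against 7 and 51 in the controls. Its groups overlapped, and the log2 fold change of -1.70 ± 1.21 did not pass (adjusted p = 0.258). Without control library 3 it did not pass the filter on low counts, whereas without control library 1 the log2 fold change was -2.48. The outcome thus depended on which control was kept, and it rests on few counts.

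**Figure D3:**
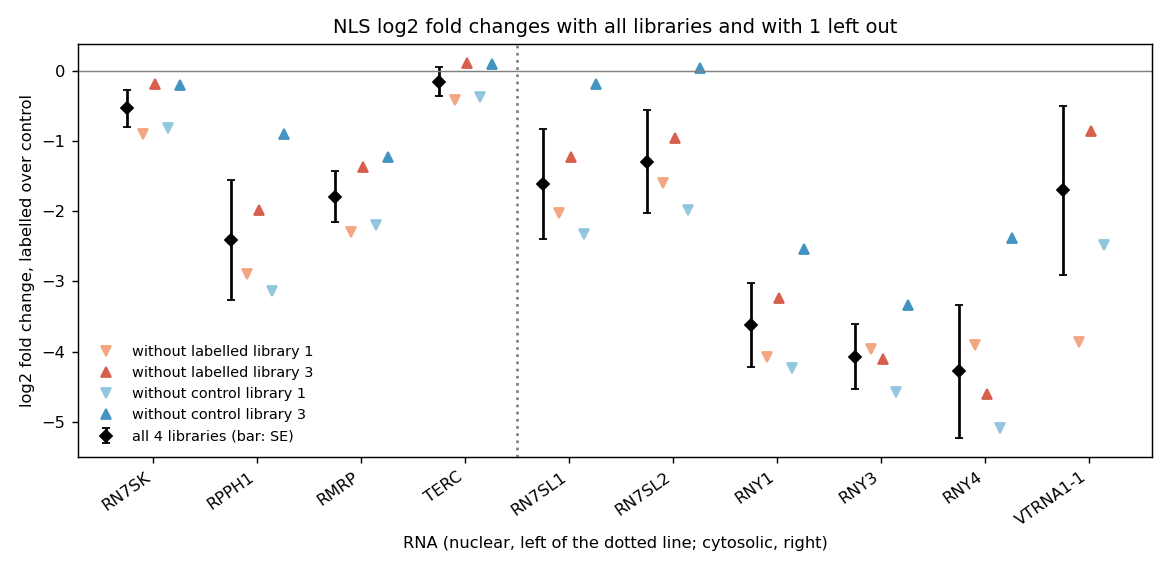
Log2 fold changes of labelled over control at NLS, with all 4 libraries (diamond, bar is 1 SE) and with each library left out in turn (triangles). RN7SL1 and RN7SL2 move to about 0 without control library 3, whereas RNY1, RNY3 and RNY4 stay below -2 throughout. VTRNA1-1 has no value without control library 3.

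Levels per kilobase of transcript allow for length, but recovery may differ between RNAs, the shortest above all, and was not tested. In the labelled libraries the means were 7920 CPM per kilobase for RN7SK, 5830 for RN7SL1 and 3680 for RN7SL2. RMRP averaged 2860, RPPH1 604 and TERC 101. The Y RNAs averaged 19.0 (RNY1), 16.4 (RNY3) and 6.09 (RNY4), and VTRNA1-1 averaged 4.99. In the controls the order was RN7SL1 at 17800, RN7SK at 11400, RMRP at 9880, RN7SL2 at 8980, RPPH1 at 3220, RNY3 at 277, RNY1 at 238, RNY4 at 118, TERC at 113 and VTRNA1-1 at 16.8. TERC ranked above all 3 Y RNAs after labelling without overlap, and its mean was below theirs in the controls, where its range overlapped those of RNY1 and RNY4. In the controls the first 4 overlapped in range, so their order does not hold beyond the spread. Neighbouring RNAs such as RN7SK and RN7SL1 overlapped after labelling too.

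Ratios within a library do not depend on scaling. Per 1000 counts of RN7SK, RNY3 had 0.493 and 0.895 counts in the labelled libraries, against 5.68 and 8.78 in the controls. RMRP had 310 and 268 in the labelled libraries, against 600 and 776 in the controls. Both were lower after labelling without overlap. RN7SL1 had 682 and 651 in the labelled libraries, against 668 in control library 1 and 1920 in control library 3. TERC had 20.1 and 22.8 after labelling, against 17.3 and 15.7 in the controls, and was the 1 RNA with both labelled values above both controls. The RNase P RNA RPPH1 had 81.1 and 71.2 after labelling, against 126 and 391 in the controls.

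The 4 nuclear RNAs summed to 1.29 and 1.25 times the 6 cytosolic RNAs in the labelled libraries, against 1.68 and 0.753 times in the controls. The labelled values lay between the controls, and 7SL made up nearly all of the cytosolic sum. Against the 3 Y RNAs alone the nuclear sum was 955 and 663 times as large after labelling, against 159 and 98.3 times in the controls. The labelled values lay outside the range of the controls for this ratio and within it for the ratio to all cytosolic RNAs.

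**Figure D4:**
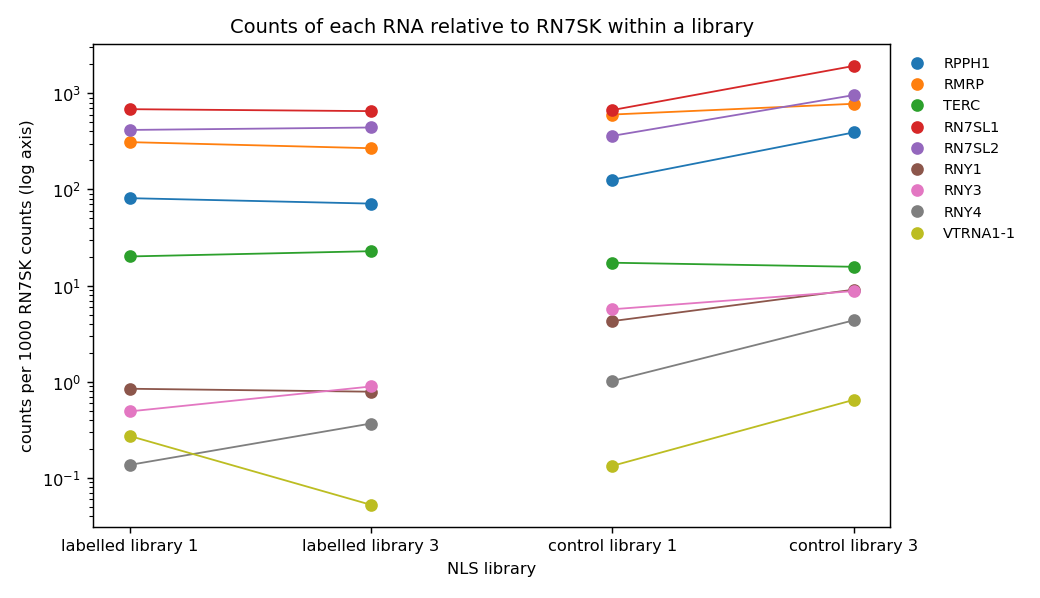
Counts of 9 RNAs per 1000 counts of RN7SK in the same NLS library (log axis), with lines joining libraries of 1 group. The Y RNAs and RMRP are lower in both labelled libraries than in both controls, RN7SL1 in the labelled libraries lies close to control library 1 (682 and 651, against 668), and TERC is slightly higher.

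Length and base composition set the Y RNAs apart from most of the other RNAs. RNY1, RNY3 and RNY4 are 113, 102 and 96 bases long with 44.2%, 45.1% and 41.7% G and C, against 268 to 541 bases and 58.2% to 66.7% for the 4 nuclear RNAs and 62.9% for RN7SL1. VTRNA1-1, of 99 bases and 52.5%, had a log2 fold change of -1.7 ± 1.21 with overlapping groups. It had too few counts to be compared with the Y RNAs, 10 and 1 after labelling, against 7 and 51 in the controls. RPPH1 and RMRP, with 64.6% and 63.1% G and C, were at -2.41 and -1.79, against -0.53 for RN7SK with 58.2%. The part of length or composition in the result was not tested within so few RNAs. Of 1684 other tested genes of 400 bases or less, 724 were higher and 163 (9.68%) lower, with a median log2 fold change of 2.12, though genes with few counts passed the filter through the group where they were high. With the trend on transcript length removed, all 10 RNAs were called lower, where 31.6% of all genes were, with RN7SK at -2.24 and TERC at -1.69, since that correction sets each RNA against other short genes.

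Of 9 relatives looked for, 6 could be tested, and 3 of them fell while the other 3 did not pass. Of all tested genes 28.5% were lower. VTRNA1-3, another vault RNA, had 20.8 and 15.2 CPM after labelling, against 29.7 and 53.6 CPM in the controls, and its log2 fold change was -1.20 ± 0.29 (adjusted p = 0.00861). RNU4ATAC, an snRNA of the minor spliceosome, had a log2 fold change of -1.19 ± 0.40 (adjusted p = 0.0342), and BCYRN1, an Alu-derived cytosolic RNA, one of -0.73 ± 0.25 (adjusted p = 0.0358). The same 3 were called without control library 3. RN7SL3 had 190 and 102 CPM after labelling, against 167 and 681 CPM in the controls, and did not pass (adjusted p = 0.164).

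Annotated pseudogene copies of the same families were higher in sum after labelling. Of 1095 tested processed pseudogenes of any kind 586 were higher and 145 lower, with a median log2 fold change of 2.67. Loci with few counts passed the filter there through the group where they were high. A rise of copies was thus not particular to these families. The 53 listed copies of RNY1, RNY3 and RNY4 summed to 11.5 and 12.6 CPM in the labelled libraries, against 3.31 and 9.96 CPM in the controls. Copies of RNY3 alone did not share this, with 2.21 and 1.56 CPM after labelling, against 1.89 and 6.04 CPM in the controls. The copies rest on 130 and 121 counts after labelling, against 58 and 173 counts in the controls. The 3 Y RNAs themselves had 54 and 39 counts after labelling, against 572 and 1743 counts in the controls. These 53 copies thus exceeded the sources in the labelled libraries and fell below them in the controls. A further 758 loci named Y_RNA, looked at later, are not in these sums. They held 1355 and 1406 counts after labelling, against 648 and 851 counts in the controls. In control library 1 they alone exceeded the sources, so the order there depends on which loci are taken as copies. The 293 RN7SK copies summed to 57.1 and 53.2 CPM after labelling, against 11.0 and 14.7 CPM in the controls. The 677 copies of 7SL summed to 325 and 309 CPM after labelling, against 79.9 and 150 CPM in the controls. Reads of copies and of their source genes are hard to tell apart, and these sums have no test.

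**Figure D5:**
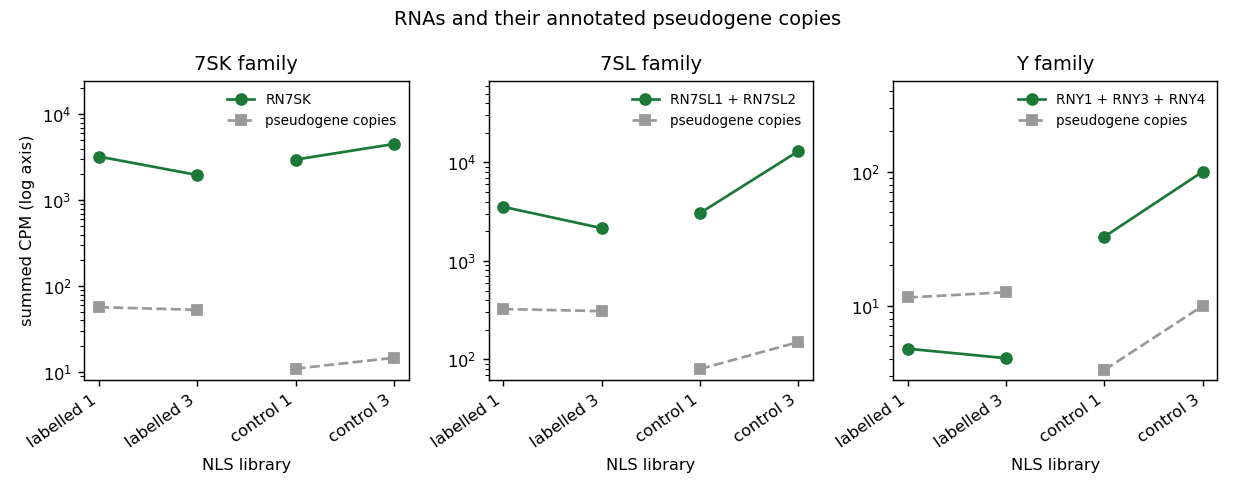
Summed CPM (log axis) of the source RNAs (green) and of their annotated pseudogene copies (grey) in the 4 NLS libraries, labelled libraries on the left. Copies of 7SK, 7SL and Y RNAs are higher in both labelled libraries than in both controls, while the Y RNAs are lower.

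The mRNAs for the protein partners are given next by particle, each value being a log2 fold change with its SE. Of 40 tested, 3 rose and 27 fell, and the median of their log2 fold changes was -0.76. Of 13856 tested protein-coding genes 2686 rose and 5508 (39.8%) fell, and their median was -0.26. The partner mRNAs that rose without control library 3 were 5, CDK9 and MVP among them, and those that fell were 28, where 40.7% of all genes in that fit were higher and 32.5% lower. For the 7SK particle 1 of 7 rose and 3 fell. CCNT2, a cyclin of P-TEFb, had a log2 fold change of 0.64 ± 0.11 (adjusted p = 0.00148), against -0.67 ± 0.13 for its relative CCNT1. The 7SK-binding proteins LARP7 and HEXIM1 were at -1.02 ± 0.12 and -0.80 ± 0.13. For RNase P and MRP 7 of 11 fell and the other 4 did not pass, with POP7 at -1.97 ± 0.19 and RPP25 at -1.65 ± 0.15. The smallest falls of that list were those of POP1 and POP4, both -0.55.

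For the telomerase particle 2 of 8 rose and 5 fell. TERT, the reverse transcriptase, had 28.1 and 24.3 CPM after labelling, against 6.34 and 9.15 CPM in the controls, a log2 fold change of 1.76 ± 0.24 (adjusted p = 0.000459). TEP1, a protein of telomerase and vault particles, was at 1.13 ± 0.15, while NOP10 and NHP2, proteins of H/ACA particles, were at -2.03 ± 0.21 and -1.68 ± 0.15.

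All 8 mRNAs for the signal recognition particle and its receptor fell, from -0.35 for SRP19 and -0.74 for SRPRA to -1.75 ± 0.10 for SRP9 and -1.77 ± 0.12 for SRP14. For the Y and vault particles 4 of 7 fell and 1, TEP1, rose. YBX1 and SSB, the La protein that binds the uridine tail of polymerase III transcripts, were at -1.91 ± 0.15 and -1.71 ± 0.09, and PUF60 at -0.81 ± 0.13. RO60, which was chosen for mention after its value was seen, was at -1.36 ± 0.11.

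Profiles over the 4 NLS libraries were compared by the root mean square difference of centred log2 CPM among 9538 genes. Closest to RN7SK, apart from a second identifier at the same place with the same counts, were ADPRS (0.0838), an ADP-ribose hydrolase at a log2 fold change of -0.55 ± 0.24, and TYRO3 (0.104), a receptor tyrosine kinase at -0.66 ± 0.24. Closest to RN7SL1 were RN7SL3 (0.0562), an identifier that overlaps RN7SL2 (0.17) and the snoRNA SNORA73B (0.252), at -1.50 ± 0.50. Closest to RNY3 were ENSG00000260035, annotated as sense intronic (0.401), the mtDNA-encoded MT-ND3 (0.609) and RNU2-2P (0.61), at -3.78 ± 0.24, -3.37 ± 0.14 and -2.89 ± 0.23.

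At the outer mitochondrial membrane, in libraries from an mRNA kit, most of these RNAs were at or near 0, while RN7SL1 and RN7SL2 were detected in all 4 libraries and RN7SK in 3. RPPH1, RNY1, RNY3, RNY4 and VTRNA1-1 had 0 counts in all 4 libraries, which allows up to 0.0567 to 0.0847 CPM, and RMRP had 1 count in 1 control. Of the 4 RNAs tested 0 passed, by edgeR, at an unadjusted p under 0.05 or by DESeq2, where 0.194% of all 14438 tested genes passed, 0.139% higher and 0.0554% lower. RN7SL1 had 3.797 and 5.68 CPM in the labelled libraries, against 9.49 and 8.70 CPM in the controls (log2 fold change -0.94 ± 1.55, adjusted p = 0.951). Its labelled libraries were below both controls, as for 22.5% of tested genes, while 21.3% lay above both. RN7SL1 had 201 and 206 counts after OMM labelling, against 369 and 308 counts in the controls. RPS29, over it on the opposite strand, had 13991 and 7847 counts, against 15941 and 17183 counts. RPS29 reads may thus not be told apart from RN7SL1 at OMM either. RN7SL2 had 16.3 and 4.03 CPM after labelling, against 6.20 and 6.15 CPM in the controls, and RN7SK had 1.38 and 4.80 CPM after labelling, against 0 and 4.15 CPM in the controls. For both the groups overlapped, and RN7SL2 was high in 1 labelled library only. Replicates differed widely there, with a biological coefficient of variation of 0.958, against 0.166 at NLS.

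TERC had 0 counts in both labelled OMM libraries, against 36 and 15 counts in the controls. The mean of the controls, 0.674 CPM, was 9.68 times the mean floor of 3 counts in the labelled libraries, 0.0697 CPM. That floor covers counting error only and not the spread of replicates, so the ratio is not a lower bound. The edgeR test within OMM did not pass (adjusted p = 0.619). In a joint fit of 8 libraries its labelling effect differed between NLS and OMM (adjusted p = 0.0204), where 8.14% of tested genes differed, 1.41% higher at NLS and 6.73% lower. Leaving out any 1 of the 4 NLS libraries ended that call, with an adjusted p of up to 0.148. For RN7SK, RN7SL1 and RN7SL2 that test did not pass (adjusted p = 0.928, 0.879 and 0.347), and for RNAs at 0 in all OMM libraries the difference has no meaning.

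The authors' deposited table has 4 of the 10 RNAs lower and 0 higher at NLS with a p under 0.05, where 22.1% of all genes with a p there were higher and 20.2% lower. Whether that p is adjusted is not given in the sources used here. It lay close to the adjusted p of the DESeq2 fit made here, at 0.0166 against 0.0171 for RMRP and 0.0504 against 0.0519 for RPPH1. The deposited values come from the same libraries and are no independent support. Log2 fold changes were -4.02 for RNY3, -4.23 for RNY4, -3.58 for RNY1 and -1.74 for RMRP in the authors' deposited table.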

How the data were processed

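The authors deposited raw read counts per gene; the submitters' processing notes name the tools Trimmomatic, STAR, HTSeq, SAMtools, bedtools, DESeq2, with builds hg38 and GRCh38.p13. Versions, strand setting and the treatment of reads with several alignments: not given in the sources used here. In the deposited counts a second identifier over RN7SK, RPPH1, RMRP, TERC and RN7SL2 on the same strand held nearly the same counts, so reads in an overlap were counted at each identifier. The authors also deposited log2 fold changes of labelled over control, and a p-value per gene.

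Columns were assigned to groups by name. Columns that match no sample here, 4 of counts and 2 of comparisons, were not used. Of 60664 identifiers, 58396 were found in GENCODE 29. Counts were tested in R 4.3.3 using edgeR 4.0.16, robust quasi-likelihood F test, TMM factors, filterByExpr (minimum count 10), a prior count of 0.125 and Benjamini-Hochberg adjustment, NLS and OMM apart and jointly for their difference. SE was taken as the absolute log2 fold change over √F. Tests were two-sided. They were also run on simulated data with the same dispersion for every gene. That run does not bear on RNAs whose controls differed as widely as here. Replicate libraries differed by more than sampling noise (chi-square per degree of freedom 4.98 to 229). Alternatives were DESeq2 1.42.0, other scalings, no filter, length-trend removal, a replicate block and leaving out each library. The RNAs and lists were chosen with earlier results of these data known. Named genes were the 10 RNAs, the 2 highest and 2 lowest called genes of each list, and the 3 genes most alike to RN7SK, RN7SL1 and RNY3 among genes whose log2 CPM averaged 4 or more. The sequences of RNY3, RN7SL1 and RN7SL2 are not reported here.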

Additional observations from a re-analysis of the deposited data

Results flagged for a closer look

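TERC is listed because its labelling effect differed between NLS and OMM in the joint fit of 8 libraries (edgeR adjusted p = 0.0204). Over 12 alternatives the adjusted p ran from 8.69e-05 to 0.148, and 8 of them kept the call. TERC had 64.7 and 45.0 CPM in the labelled NLS libraries, against 51.4 and 70.7 CPM in the NLS controls. At OMM it had 0 counts in both labelled libraries, against 36 and 15 counts in the controls. Compartment and library kit cannot be told apart in this difference. The joint fit shares 1 dispersion per gene between NLS and OMM, whose spread differed widely, and neither labelling effect passed in its own fit.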

How the results depend on the processing

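At NLS 114 of 139 single-RNA alternatives kept the direction and the side of the threshold, 17 newly passed, 4 lost the call and 4 turned in sign. RNY1, RNY3 and RNY4 were called lower in all 14 alternatives each, which reuse the same 4 libraries or some of them and are no independent support. RMRP lost its call without the filter on low counts (adjusted p = 0.286), with the replicate block (adjusted p = 0.171) and without either labelled library. The number called lower was 10 with the length trend removed, and 3 to 10 when 1 library was left out (10 without control library 1, 5 without control library 3). In such fits the lone library is assumed to vary like the other group. With the replicate block 3 were called. The column numbers share 1 and 3, and deviations of the same number had a correlation of -0.0222 over all tested genes. That 1 value cannot show whether libraries of the same number share a culture or batch. No paired analysis was possible at OMM because its columns share 1 number. With overlapping duplicate identifiers removed, an alternative chosen after seeing the data, 5 were called, RPPH1 among them (adjusted p = 0.035); the non-robust fit called 6.

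TERC turned to 0.37 with library size alone and ran from -0.41 to 0.12 with 1 library left out. RN7SL2 ran from -1.98 to 0.04. At OMM RN7SK ran from -0.58 to 1.21 and RN7SL2 from -0.61 to 1.41. The median of the nuclear RNAs ran from -1.60 to -0.55, that of the cytosolic RNAs from -3.89 to -2.24 and their difference, 1.5 with all libraries, from 1.47 to 2.29. With 1 value per family (7SL, Y and vault) the difference was 0.54. The NLS minus OMM call of TERC (1 RNA) was lost without each NLS library (0 to 1). The causes were not tested. Few counts limit VTRNA1-1 and RNY4 at NLS, and 6 of the 10 RNAs had 0 or 1 counts in every OMM library.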
